A study of Elaeis guineensis with 6 samples.

Results

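Leaf axils -27 and -20 are the closest pair of inflorescence positions in this oil palm (Elaeis guineensis) transcriptome, and the step between them was taken in the control tree and in the completely defoliated tree. The comparison uses 4 of the 6 libraries, 1 for each treatment and leaf axil, and asks which genes differ the same way in both trees. Of 32099 gene records, 18759 reached an FPKM of 1 in 2 or more of the 4 libraries and were tested. FPKM counts the fragments of a gene relative to its length and to the total of mapped fragments in that library. At the edge of this rule, the second highest of the 4 values was 1.000292 for LOC105050776, which entered, and 0.999960 for LOC105043547, which did not.

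The control group was 1 tree left untreated. The stress group was 1 tree from which all leaves were pruned except the unopened one at the centre, and the inflorescences were collected 45 days later, when the trees were cut. The tissue of all libraries was primordial inflorescence, and total RNA was sequenced. No cultivar or genotype is given for either tree in the sources used here. A treatment is therefore a single tree, the 2 leaf axils of a treatment come from the same tree, and treatment and tree cannot be told apart. The remaining 2 libraries, from leaf axil +5 of the same trees, appear below only as further values of the named genes or as a separate tree's measurement.

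An oil palm carries 1 inflorescence in the axil of each leaf. Leaves are numbered from the crown, with negative numbers for leaves that are still unopened, so successive axils of a tree hold successive ages of inflorescence. In model plants, class I KNOX genes keep cells of the shoot meristem undifferentiated, and MADS-box genes, among them those of the SQUA, GLO and DEF groups, give meristems and organs their floral identity. These groups were first described in Antirrhinum.

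The labelled tissue was checked with these markers. KNOX1 was among the abundant records, with an FPKM of 847 and 480 in the control tree and of 961 and 914 in the defoliated tree at leaf axils -27 and -20. Of the floral symbols, SQUA1 and GLO2 passed the filter. AG2 was listed at 0 in all 4 early libraries. DEF1 had 0.164 in control -27 and was listed at 0 in the other 3 early libraries. The 45 records of photosystem, cytochrome b6f, Rubisco, ATP synthase and NDH genes of the plastid together summed to an FPKM between 7.34 and 11 in the early libraries, with no single record above 2.75. In these libraries the transcripts of these plastid genes were thus near 0. Nuclear genes of green tissue were not checked, and how the libraries captured plastid RNA is not given in the sources used here. The values therefore do not show that green tissue was absent.

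The FPKM values of an early library summed to between 253872 and 259362. Between 17857 and 18402 records reached an FPKM of 1. Relative depth, read from the ratio of low FPKM values to those of control -27, was 1.01 in control -20, 1.19 in stress -27 and 1.03 in stress -20, so stress -27 was the most deeply sequenced of the 4. The paper lists the reads and the mapped share of each library, with stress -27 the highest of the early libraries in reads. Those read numbers were not used here, and no counting interval was computed.

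The step from -27 to -20 was small in both trees, and little of it was shared. In limma, with the tree as a block, 0 of the 18759 records (0%) were past an adjusted p under 0.01 and a 2-fold change, and 0 were past an adjusted p under 0.05. The smallest Benjamini-Hochberg adjusted p was 0.104, that of DRM. At an unadjusted p under 0.05 there were 977 records (5.21%), of which 387 were higher (2.06%) and 590 lower (3.15%) at -20. This tilt depends on scaling, since after centring each library on its median 451 were higher and 455 lower. The fit has 1 residual degree of freedom, the disagreement of the 2 trees on the step, and borrows the equivalent of 6.73 further degrees of freedom from the other records. For a single record, the exact permutation of 2 pairs allows no two-sided p under 0.5.

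The intervals show how large a shared step these libraries leave room for. For 18064 records (96.3%) the 95% interval of the mean log2 change lay within 1 on either side of 0. That is inside a 2-fold change of FPKM + 1. For weakly expressed records, a larger fold of FPKM itself can lie inside such an interval. Among the 10285 records with a mean FPKM of at least 5 the share was 98.6%. The median half-width of the interval was 0.406 on the log2(FPKM + 1) scale. These intervals rest on 2 trees and say nothing of other trees.

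Counted within each tree, and without a test because each has 1 library per leaf axil, 98 records were 2-fold or more higher (0.522%) and 77 lower by as much (0.41%) at -20 in the control tree, 0.933% in either direction. In the defoliated tree 94 were higher (0.501%) and 80 lower (0.426%), 0.928% in either direction. All folds are on the log2(FPKM + 1) scale, which shrinks the folds of weakly expressed genes. Of the 98 records higher in the control tree, 12 (12.2%) were also 2-fold higher in the defoliated tree, where 0.501% of all records were, and 3 (3.06%) were 2-fold lower, as were 0.426% of all. The shares in both directions lay above those over all records, the same direction the more so. Those 12 were 12.8% of the records higher in the defoliated tree. Of the 77 records lower in the control tree, 3 (3.9%) were also lower in the defoliated tree, where they made up 3.75% of the lower records, and 4 (5.19%) were higher there. For the lower records, then, the opposite direction was as frequent as the same one. In all, 15 records differed 2-fold the same way, 12 higher (0.064%) and 3 lower (0.016%), and 7 differed 2-fold in opposite ways (0.0373%). These counts depend on low values: with a pseudocount of 0.1 there were 32 higher and 24 lower, against 57 in opposite ways, and with an FPKM of 1 or more in all 4 libraries 3 and 0, against 2. Of the early libraries, LOC105032249, LOC114914492, LOC114913106 and LOC114913053 reached an FPKM of 1 only at -20, and the 3 lower records only at -27. They thus passed the filter only through the leaf axil where they were high. With no filter on low values the counts were likewise 12 higher, 3 lower and 7 in opposite ways, but this was fixed in advance. A 2-fold change of FPKM + 1 needs an FPKM of at least 1 in the higher library of each tree. Every such record therefore passes the filter.

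With a lower bar the balance was closer to even. At 1.5-fold, 58 records were higher and 46 lower in both trees, against 94 that differed in opposite ways. With a mean FPKM of at least 5 the same bar gave 24 higher, 13 lower and 20 in opposite ways. Over all 18759 records, 49.6% had the same sign of the step in both trees. Across records, which share the 4 libraries and are not independent replicates, the step in one tree and the step in the other had a Pearson's r of 0.013 and a Spearman's rho of -0.005. The 2 steps share no library.

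**Figure D1:**
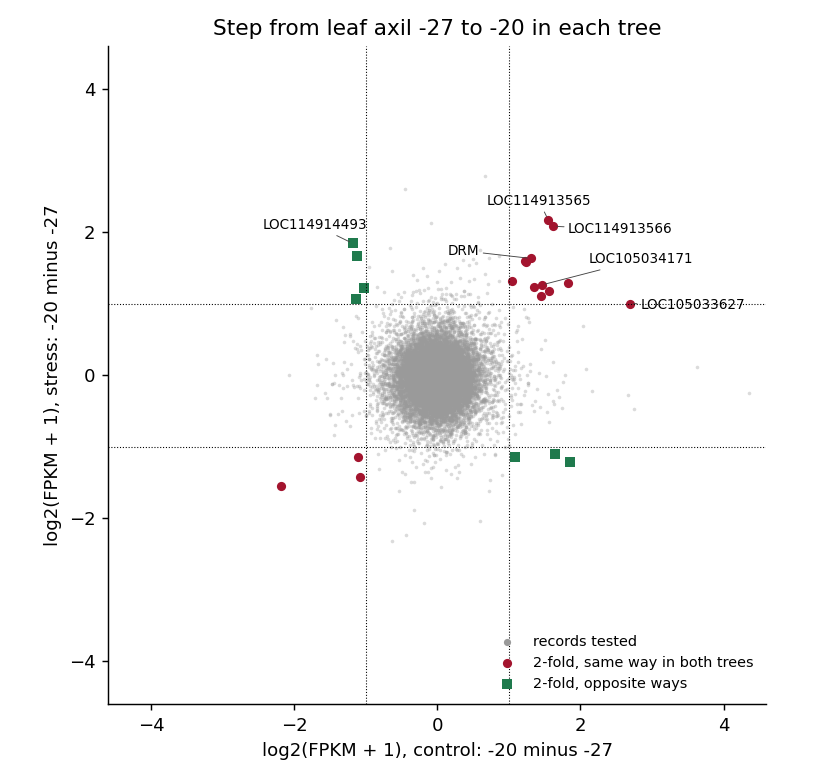
Change in log2(FPKM + 1) from leaf axil -27 to -20 in the control tree (horizontal) against the same change in the defoliated tree (vertical), 1 point for each of 18759 records, with dotted lines at 2-fold. The cloud is round (r = 0.013), and 15 records (circles) lie beyond 2-fold the same way while 7 (squares) lie beyond it in opposite ways.

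The spread of the step narrowed with expression level up to an FPKM of 100, and its size was close in both trees. The standard deviation over records was 0.305 in the control and 0.312 in the defoliated tree. It was 0.4 and 0.394 in records with a mean FPKM under 1 and 0.225 and 0.246 in those between 20 and 100. Of the 429 records under 1, 3.96% were at least 2-fold apart in the control tree and 3.03% in the defoliated tree, against 0.263% and 0.438% of the 2283 records between 20 and 100. In the 255 records at or above 100 the spread was slightly wider again, 0.235 and 0.256, with 0.392% and 0.784% at least 2-fold apart. Of the 22 records that passed 2-fold in both trees, in whichever direction, 16 had a mean FPKM under 5.

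**Figure D2:**
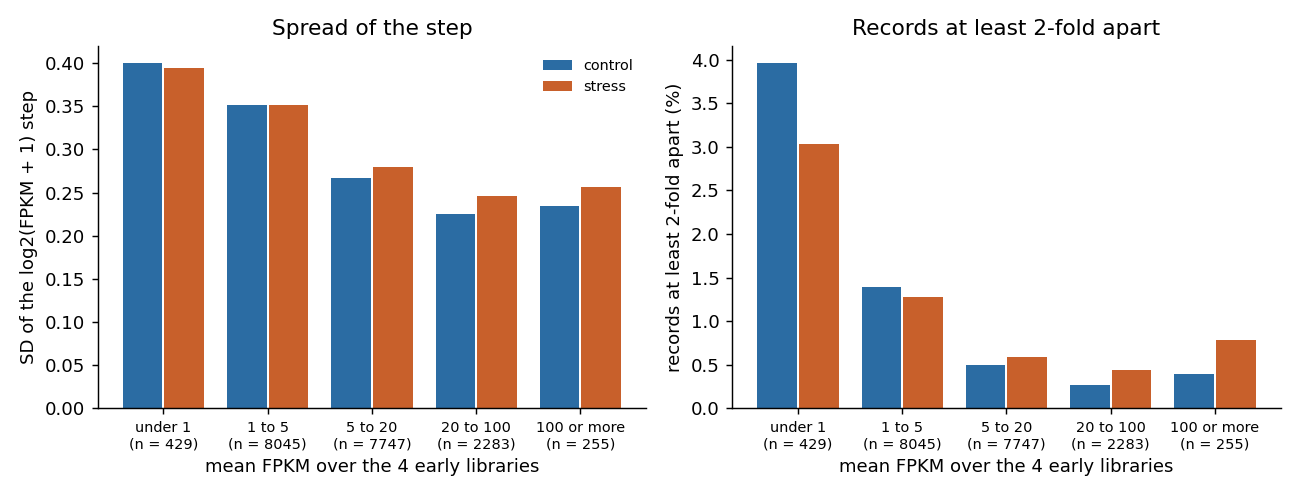
Standard deviation of the log2(FPKM + 1) step (left) and percentage of records at least 2-fold apart (right) in each tree, by mean FPKM over the 4 early libraries, with the number of records under each band. Both fall from the lowest band (0.4 and 3.96% in control) to the band from 20 to 100 (0.225 and 0.263%).

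The difference between the trees at a given leaf axil was larger than the step. Its standard deviation was 0.571 at -27 and 0.589 at -20, with 516 records 2-fold or more higher and 818 lower in the defoliated tree at -27, and 489 and 967 at -20. These differences use the same 4 libraries as the step. The larger spread was not tested, as each cell holds 1 library.

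DRM was the record nearest to a shared step. Its FPKM was 7.53 at leaf axil -27 and 20.1 at -20 in the control tree, and 39.1 and 123 in the defoliated tree. The library at -20 was above that at -27 in both trees, and both stress libraries were above both control libraries. The FPKM ratio of -20 to -27 was 2.67 in the control and 3.15 in the defoliated tree, and the mean log2 change was 1.47 with a standard error of 0.13 (95% interval 1.16 to 1.78, adjusted p = 0.104 from limma). At leaf axil +5 DRM stood at 48.4 and 1048, again above the earlier positions of each tree. The files give no product for this symbol and no role is stated for it here.

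With the test restricted to the 10285 records with a mean FPKM of at least 5, the adjusted p of DRM in limma was 0.0305. In that fit 3 records were under an adjusted p of 0.05, with LOC114913566 and LOC105034171 at 0.0453, and 0 under 0.01. Over the 7 paired fits that varied the pseudocount, the filter or the scaling, with the reported fit among them, the adjusted p of DRM ranged from 0.0305 to 0.621. Without the block or with all 6 libraries in the fit, the smallest adjusted p over all records was 1.0.

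Besides DRM, 4 records with a mean FPKM of at least 5 were at least 2-fold higher at -20 in both trees, and 0 were lower. LOC105034171, a protein-coding gene, had an FPKM of 3.04 and 10.1 in the control and of 6.54 and 17.0 in the defoliated tree. Its mean log2 change was 1.36 with a standard error of 0.15 (adjusted p = 0.166 from limma). At +5 it was listed at 0 in the control tree and had 41.3 in the defoliated tree, so the trees part there, while from -27 to -20 both were higher.

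LOC105033565, also protein-coding, went from 2.28 to 7.97 in the control and from 2.97 to 7.59 in the defoliated tree. Its early values in the trees are close to each other at both leaf axils, unlike those of DRM. Its mean log2 change was 1.28 with a standard error of 0.18 (adjusted p = 0.295 from limma). At +5 it reached 31.8 in the control and 6.97 in the defoliated tree.

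LOC105033627, also a protein-coding record, had 0.812 and 10.7 in the control and 4.1 and 9.22 in the defoliated tree. The control step is the larger by far, and the stress step lies just past 2-fold, so the mean log2 change of 1.84 has a standard error of 0.35 (adjusted p = 0.522 from limma). At +5 its FPKM was 45.4 in the control and 2.9 in the defoliated tree.

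LOC114913566 is listed as rRNA in the gene table. Its FPKM was 6.53 and 22.1 in the control and 0.291 and 4.48 in the defoliated tree, with a mean log2 change of 1.85 and a standard error of 0.19 (adjusted p = 0.111 from limma). It was the only record past 3-fold in both trees. Copies of rRNA genes are near-identical, so the share of reads given to a single record is uncertain. At +5 it had 0.102 in the control and 7.35 in the defoliated tree.

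**Figure D3:**
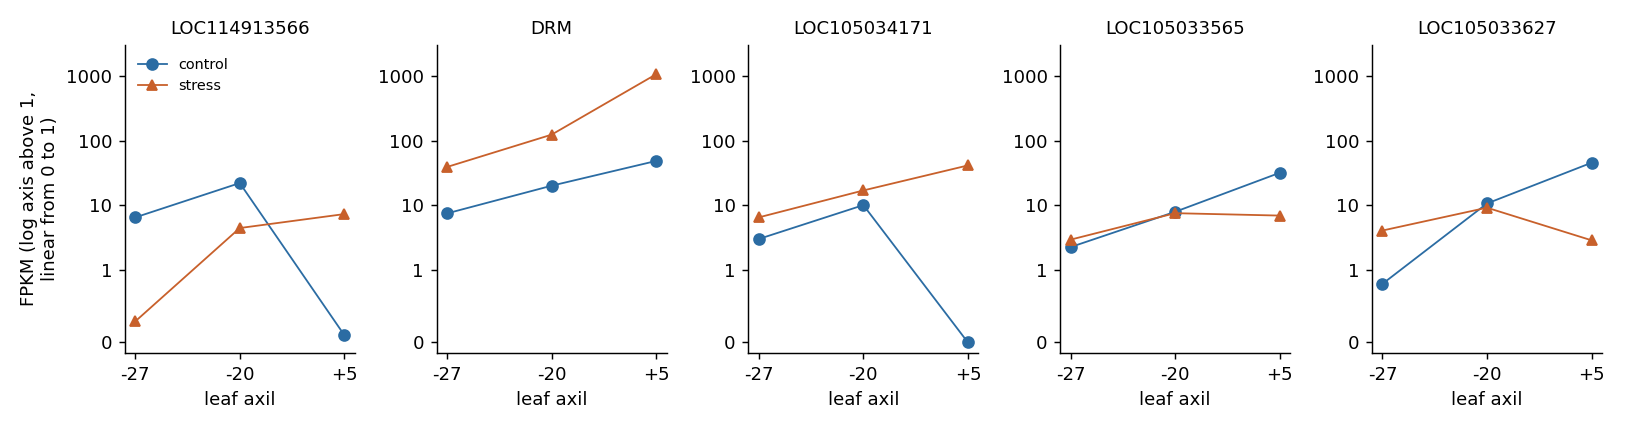
FPKM at leaf axils -27, -20 and +5 in the control tree (circles) and the defoliated tree (triangles) for the 5 records with a mean FPKM of at least 5 that were at least 2-fold higher at -20 in both trees, on an axis that is logarithmic above 1 and linear from 0 to 1. The lines run upward from -27 to -20 in every panel, while at +5 only DRM lies above -20 in both trees.

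The other 7 records higher in both trees had a mean FPKM under 5, and they are named here after their values were seen. LOC114913565 had 1.81 and 7.22 in the control and 0.166 and 4.23 in the defoliated tree (adjusted p = 0.183 from limma). The gene table does not hold it. The protein-coding LOC105040489 had 0.1 and 2.89 in the control and 2.42 and 7.28 in the defoliated tree.

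LOC105040884 had 0.188 and 1.81, and then 1.29 and 5.86, in the same order. At +5 it stood at 9.66 and 35. DRM and LOC105040884 were the 2 of the 12 higher records whose +5 value exceeded that at -20 in both trees. The remaining 4 are the protein-coding LOC105032249, with 0.449 and 2.69 in the control and 0.334 and 2.14 in the defoliated tree, and the snoRNAs LOC114914492, LOC114913106 and LOC114913053, whose highest early value was 2.79.

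The 3 records lower in both trees were weak. LOC114914850, a snoRNA, had 5.61 and 0.444 in the control and 1.93 in stress -27, and it was listed at 0 in stress -20. LOC105045086, the protein-coding one, had 2.4 and 0.581 and then 1.91 and 0.323. LOC114913596, a lncRNA, had 1.11 and 1.69 at -27 and was listed at 0 at -20 in both trees. An FPKM listed at 0 gives no fold, so these are stated as values only.

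Smaller shared steps were found at higher levels, and the following were chosen after their values were seen, from the 25 smallest p-values in limma. Each has an adjusted p of at least 0.295. LOC105060335 had an FPKM of 6.41 and 14.5 in the control and of 7.63 and 15.6 in the defoliated tree, nearly the same levels in both trees. LOC105054906 had 4.08 and 11 in the control and 14.9 and 26.7 in the defoliated tree. LOC105051990 went from 33.8 to 50.9 and from 54.0 to 94.5. All of them are protein-coding, and in each the value at -20 lay above that at -27 in both trees.

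Lower values in both trees were held by the protein-coding LOC105045147, with 79.3 and 44.8 in the control and 102 and 66.3 in the defoliated tree. LOC105057270 went from 7.34 to 3.77 and from 20.6 to 10.7. LOC105045822 had 31.1 and 19.5, then 30.5 and 17.9, and so had like levels in the trees as well as a like step. The lncRNA LOC105054935 went from 45.5 to 25.1 and from 11.9 to 6.88. None of these reached 2-fold on the log2(FPKM + 1) scale in either tree.

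Among records with a mean FPKM of at least 5, the largest steps within a tree were mostly not 2-fold in the other. Of the 10 largest in the control tree, 5 in each direction, 1 was 2-fold the same way in the defoliated tree and 3 had the same sign. Of the 10 largest in the defoliated tree, 2 were 2-fold the same way in the control and 9 had the same sign. In the control tree, the protein-coding LOC105039092 had an FPKM of 0.652 at -27 and 32.9 at -20, against 10.2 and 8.38 in the defoliated tree. The lncRNA LOC109506101 had 1.32 and 27.8 in the control and 0.445 and 0.565 in the defoliated tree. LOC105047088, with 9.45 and 65.1 in the control, was already at 129 and 106 in the defoliated tree. Their control values at -27 are thus low against -20, while the stress values stay within a factor of 1.5 between the leaf axils.

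In the defoliated tree, LOC105042432 had the largest step up of these, from 2.94 to 26.1, with 9.05 and 14.9 in the control. The largest steps down were those of LOC105056216, from 29.5 to 5.11 against 2.32 and 1.14 in the control, and LOC105055190, from 8.08 to 0.921 against 8.34 and 5.91. Each is a single library against another, and no replicate check exists for them. They were selected by size after their values were seen.

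None of the genes in the floral, meristem, hormone signalling and oxidative stress lists was past the threshold. The same held for all 18759 records tested (0%), so this does not set the lists apart. The 2 floral MADS-box genes above the filter pointed apart. SQUA1 had an FPKM of 5.59 and 6.78 in the control and of 4.1 and 8.43 in the defoliated tree, so it was higher at -20 in both trees. Its mean log2 change was 0.56 with a standard error of 0.20 (95% interval 0.11 to 1.02, adjusted p = 0.953 from limma). GLO2 had 3.61 and 4.86 in the control and 2.15 and 0.844 in the defoliated tree. It was higher at -20 in the control and lower in the defoliated tree, with an interval of -0.86 to 0.43. At +5 SQUA1 stood at 124 and 150, far above its early values in both trees.

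KNOX1, the only meristem gene of the list, was lower at -20 in both trees, by -0.82 on the log2 scale in the control and by -0.07 in the defoliated tree. Its 95% interval was -0.91 to 0.02 (adjusted p = 0.966 from limma). The control value at -20 is the one that stands apart from the other 3 early libraries. At +5 KNOX1 had 381 in the control and 928 in the defoliated tree, so its control value was low there too. GST, which encodes a glutathione transferase, is the only member of the oxidative stress list. It had 27.4 and 14.7 in the control and 20.4 and 21.3 in the defoliated tree (adjusted p = 0.976 from limma). Its early control libraries thus lie on either side of the early stress ones. At +5 it had 9.15 in the control and 28.8 in the defoliated tree.

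The list of hormone signalling prefixes holds 4 symbols. It includes DRM by its letters alone, and the other 3 had mean log2 changes between -0.04 and 0.04. In Arabidopsis, Aux/IAA proteins repress auxin response and AHP proteins pass on the cytokinin signal by phosphotransfer, while GSK denotes kinases of the GSK3/shaggy type. IAA1 had 136 and 129 in the control and 52.4 and 55.4 in the defoliated tree, so its trees differ but its leaf axils do not differ by 2-fold, with an interval of -0.27 to 0.28. AHP1 lay between 16 and 21.3 and GSK between 66.8 and 83.7 in the 4 libraries. Their intervals, -0.35 to 0.28 and -0.24 to 0.31, lie well inside a 2-fold change.

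Over all 15 nuclear genes that carry a name and were tested, of 23 in the file, the median mean log2 change was 0.01, beside -0.02 over all records. Apart from DRM, the range was -0.45 to 0.56. GPAT, a glycerol-3-phosphate acyltransferase of lipid synthesis, had 7.22 and 9.62 in the control and 4.63 and 6.51 in the defoliated tree and was higher at -20 in both (95% interval 0.03 to 0.75, adjusted p = 0.953 from limma). TCTP, the translationally controlled tumour protein, was at 1175 and 1016 in the control and 521 and 563 in the defoliated tree.

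**Figure D4:**
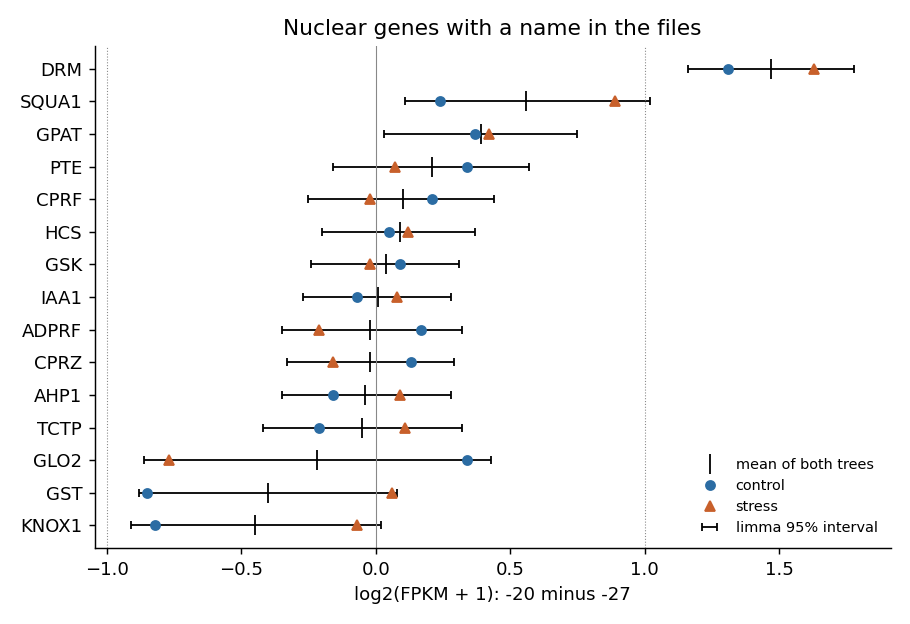
Change in log2(FPKM + 1) from leaf axil -27 to -20 for the 15 nuclear genes with a name, in the control tree (circles) and the defoliated tree (triangles), with the mean (tick) and its limma 95% interval (bar). DRM (1.47) lies beyond the 2-fold line, and the other 14 means lie between -0.45 and 0.56.

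Plastid genes gave 25 tested records of 138. They had a median step of -0.12 in the control and 0.29 in the defoliated tree, against -0.00 and -0.04 over all records. These medians pool unlike sets. The 6 tested plastid rRNA records, which are copies, had medians of -0.51 and 0.54. The 13 of plastid ribosomal proteins had -0.07 and -0.06. The 3 tested records of photosystem, cytochrome b6f, Rubisco, ATP synthase and NDH genes had 0.71 and -0.68. None of the plastid records was past the threshold, as was none of all records (0%). Of the plastid records 0 were 2-fold apart the same way in both trees. Over all records 0.064% were higher and 0.016% lower in both, so these counts do not set plastid genes apart. The one with the smallest p, infA, a plastid initiation factor of translation, had 4.3 and 6.73 in the control, was listed at 0 in stress -27 and had 1.96 in stress -20 (adjusted p = 0.815 from limma). The 6 tested records of plastid rRNA, which are repeats of rrn16, rrn23 and rrn4.5 under the same symbols, were all lower at -20 in the control and all higher in the defoliated tree. For rrn23 the values were 13.2 and 8.32 in the control and 3.21 and 5.52 in the defoliated tree in 1 of its records. The 6 records are copies and count as 3 genes, and their levels in stress -27 are the lowest of the early libraries. The 13 tested records of plastid ribosomal proteins had a median mean log2 change of -0.07. Among them, rpl16 had 17.8, 16.8, 8.54 and 8.08 in the order control -27, control -20, stress -27 and stress -20. The symbols rpl2 and rps19 each stand on more than 1 of these records.

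Records of structural RNA made up many of those 2-fold apart. Of the 16465 protein-coding records tested, 0.656% were at least 2-fold apart in the control tree and 0.68% in the defoliated tree. The 133 records of rRNA, snRNA, snoRNA and tRNA, 0.709% of those tested, reached 24.8% and 20.3%. They hold 5 of the 15 records that differed the same way and 5 of the 7 that differed in opposite ways. Such RNAs are mostly short or lack poly(A) tails, and how the libraries were made with respect to them is not given in the sources used here.

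The direction differed between these classes. Of the 104 snoRNA records, 10 were 2-fold higher and 12 lower in the control tree, and 15 higher and 7 lower in the defoliated tree, with median steps of -0.06 and 0.04. Of the 11 snRNA records, 5 were lower and 1 higher in the control tree, and 1 was higher in the defoliated tree. Their summed FPKM was 64.2 and 32.6 in the control at -27 and -20, and 11.6 and 14.5 in the defoliated tree. The 15 rRNA records, plastid copies included, summed to 440 and 475 in the control and to 190 and 337 in the defoliated tree. LOC114913566, itself 1 of these records, was higher at -20 in both trees as the rRNA sum was, and the part of that sum in its step was not tested. Of the protein-coding records, 7 were 2-fold higher and 1 lower in both trees, beside 1 in opposite ways.

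**Figure D5:**
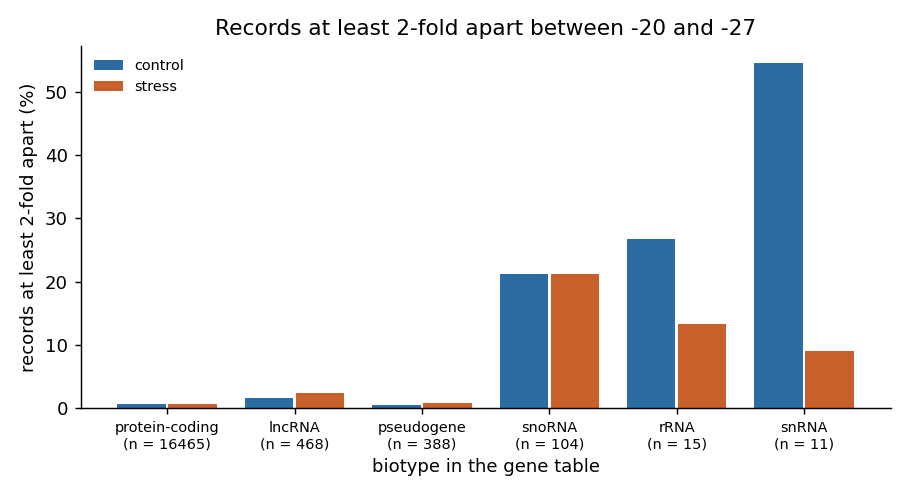
Percentage of tested records at least 2-fold apart between leaf axils -20 and -27 in each tree, by biotype in the gene table, with the number of records under each. Protein-coding records lie at 0.656% and 0.68%, snoRNA records at 21.2% in both trees.

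The later leaf axil gave a check that shares no library with the step, since genes can be chosen in one tree and measured in the other. The 1199 records at least 2-fold higher at +5 than at the early leaf axils of the control tree had a median step of -0.06 in the defoliated tree, beside -0.04 over all records. The 656 records at least 2-fold higher at +5 in the defoliated tree had a median step of -0.00 in the control tree, the value over all records. The share of records above 0 was 43.0% in the first set and 49.8% in the second, beside 43.8% and 49.5% over all records. For records at least 2-fold lower at +5 the medians were -0.00 and 0.02.

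Records with the largest later differences were few. The 48 records at least 8-fold higher at +5 in the control tree had a median step of 0.19 in the defoliated tree, with 4 of them 2-fold or more higher (8.33%) and 1 lower by as much (2.08%). The 15 chosen likewise in the defoliated tree had a median step of 0.08 in the control, with 2 at least 2-fold higher (13.3%) and 0 lower. Records lower at +5 also held more 2-fold higher steps than the whole. Of the 36 at least 8-fold lower in the control tree, 2 were 2-fold higher in the defoliated tree (5.56%) and 0 lower, and of the 14 chosen likewise in the defoliated tree, 1 was 2-fold higher in the control (7.14%) and 0 lower. In the sets at least 2-fold lower at +5 the shares were 2.51% and 2.22%, and in those at least 2-fold higher 1.33% and 2.9%. Over all records 0.501% and 0.522% were 2-fold higher. Steps 2-fold lower made up 1.25% and 0.683% of the sets at least 2-fold lower at +5, and 1.08% and 1.52% of those higher. Over all records 0.426% and 0.41% were 2-fold lower. The sets chosen at 2-fold thus held more 2-fold steps than the whole in both directions. This comparison was chosen after the data were seen and carries no test.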

How the data were processed

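Inflorescences of 1 control and 1 defoliated oil palm gave 6 paired-end libraries, 1 per treatment and leaf axil. The authors left the reads untrimmed, aligned them with HISAT2 2.1.0, quantified genes with StringTie 1.3.4 and deposited FPKM values, with no filter and with 378 records repeating the identifier of another. No per-sample column was left unused (0).

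Records that reached an FPKM of 1 in 2 or more of the 4 early libraries were tested on log2(FPKM + 1) with limma 3.58.1 in R 4.3.3 (tree as block, eBayes with a mean-variance trend, Benjamini-Hochberg adjustment). The thresholds, an adjusted p under 0.01 and 2-fold, are those of the methods of the study. The pairing comes from the tree, and deviations within a tree correlated across records with r = 0.72. P-values rest on the disagreement of these 2 trees on the step, moderated by the spread of the other records, and say nothing of other trees. That disagreement also holds any difference in the step between treatments. Counts of reads were not used here. The fit was tested on simulated data. Other steps used Python 3.11.15, numpy 2.4.6, pandas 2.3.3 and matplotlib 3.10.9.

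Genes named were, with a mean FPKM of at least 5, up to 10 per direction at least 2-fold apart the same way in both trees, up to 5 in opposite ways, any past the threshold, and listed symbols above the filter. Records named beyond this rule are marked as chosen afterwards. The members and lists were chosen with earlier results of these data known. Biotypes and synonyms came from a RefSeq gene table of a newer assembly (EG11), matched by symbol to 28655 records (89.3%). It gives no products or sequences, so lists by product, protein signature or promoter motif were not run. Some floral symbols of the lists are not reported here. Alternatives were the pseudocount, filters, scaling, variance prior, block, folds, all 6 libraries and leaving out libraries or trees.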

Additional observations from a re-analysis of the deposited data

Results flagged for a closer look

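In 7 records the step from leaf axil -27 to -20 was at least 2-fold in both trees but in opposite ways. The difference between the trees was not tested, since 4 libraries in 4 cells leave no residual degree of freedom. Values are the log2 change in the defoliated tree minus that in the control tree, on the log2(FPKM + 1) scale. LOC114914493, a snoRNA and the only one of the 7 with a mean FPKM of at least 5, had a difference of 3.02, from an FPKM of 31.6 and 13.4 in the control and 1.5 and 7.92 in the defoliated tree. The protein-coding LOC105047292 had 2.77, from 6.69 and 2.55 in the control and 1.44 and 6.69 in the defoliated tree. The snoRNAs LOC114913949, LOC114914761, LOC114912838 and LOC114914057 had -3.07, -2.73, 2.20 and 2.25, in that order, and LOC105041969 had -2.23. Each of these 5 was listed at 0 in at least 1 early library.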

How the results depend on the processing

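Under every alternative run, 0 records were past an adjusted p under 0.01 and 2-fold in limma, including no replicate block (99 records at an unadjusted p under 0.05, against 977), all 6 libraries in the fit (188) and each library left out in turn (0 to 0 past the threshold, 121 to 248 at an unadjusted p under 0.05, where the lone sample of an arm is assumed to vary like the others). The replicate block changed no call. Some p-values reached an adjusted p under 0.05 only with a mean FPKM of at least 5 (3 records). At an adjusted p under 0.25, a threshold added after seeing the data, there were 5 records.

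The number of records 2-fold apart the same way in both trees depended on low values. A pseudocount of 0.1 gave 32 higher and 24 lower, beside 57 in opposite ways. An FPKM of at least 1 in all 4 libraries gave 3 and 0, a mean FPKM of at least 5 gave 5 and 0, and protein-coding records alone, added after seeing the data, gave 7 and 1. At 1.5-fold there were 58 and 46, and at 3-fold 1 and 0. With a tree left out there is no shared count. What remains is the count within the other tree alone, 94 to 98 higher and 77 to 80 lower. The standard deviation of the step was 0.44 in the control and 0.46 in the defoliated tree with a pseudocount of 0.1, and 0.257 and 0.272 with a mean FPKM of at least 5.

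With 1 tree left out, 6 of the 13 named records changed sign, each being the tree that disagreed with the mean. Leaving 1 tree out returns the step of the other, so this restates which records had opposite signs in the trees. For LOC114914493 and the records named for a rise in both trees, the naming rule had fixed the outcome. LOC114914493 ranged from -1.18 to 1.84, GLO2 from -0.77 to 0.34, AHP1 from -0.16 to 0.09, GSK from -0.02 to 0.09, IAA1 from -0.07 to 0.08 and GST from -0.85 to 0.06. No named record changed sign under another pseudocount, filter or scaling.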
